A study of Mus musculus with 6 samples.

Results

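The genes described here encode 10 immune checkpoint and costimulatory proteins: Ctla4, Pdcd1, Cd274, Pdcd1lg2, Lag3, Tigit, Havcr2, Icos, Cd28 and Klrg1. They were chosen by name, with earlier results of these data known, and all 10 were found among the 27179 Entrez gene IDs of the deposited count table. All 10 also passed the filter on low counts, which left 12967 genes to test. RNA was sequenced from mouse group 2 innate lymphoid cells (ILC2s) sorted by Chat, the enzyme that makes acetylcholine, with 3 samples from the negative gate and 3 from the positive gate. The sources used here do not give strain, genotype, age, tissue, any treatment of the mice or the way Chat was detected. No label says whether samples of 1 gate are separate animals, so p-values cover only the spread between the sequenced samples, and part of it may be technical.

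ILC2s lack antigen receptors and act through type 2 cytokines, yet they carry many of the surface receptors that tune T cell activation. CD28 and ICOS are costimulatory receptors, which bind the B7 ligands CD80 and CD86 and the ICOS ligand respectively, and recruit phosphoinositide 3-kinase. CTLA-4 competes with CD28 for CD80 and CD86, and PD-1 (Pdcd1) binds PD-L1 (Cd274) and PD-L2 (Pdcd1lg2) and recruits tyrosine phosphatases. TIGIT binds the nectin-like protein PVR, TIM-3 (Havcr2) binds galectin-9 among other ligands, LAG-3 binds MHC class II, and KLRG1 binds E-cadherin and N-cadherin. ICOS and KLRG1 are commonly used to recognise ILC2s, and PD-1 is known to restrain them.

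Library totals ran from 37154269 to 50361306 counts, with 15335 to 16081 genes detected. Levels are CPM, read counts scaled by the TMM library size, and changes are log2 Chat positive minus Chat negative with their standard error (SE). Chat stood at 16.5, 26.5 and 17.5 CPM across Chat negative samples 1, 2 and 3 and at 188, 169 and 204 CPM across Chat positive samples 1, 2 and 3, without overlap, as the labels of the gates say. Of the listed ILC2 markers, 13 of 13 were detected. Their summed level was 15643 to 17905 CPM across Chat negative and 17213 to 23210.1 CPM across Chat positive samples, led by Il5 and Il2ra. The markers were not all abundant: Thy1 was lowest by mean, at 14.3 ± 7.12 and 10.9 ± 5.71 CPM (SD, n = 3 each). The 2 samples numbered 2, 1 from each gate, stood apart from the other 4: chi-square per degree of freedom between samples of a gate was 132 to 187 for pairs with a number 2 sample and 31.5 and 32.1 for the other pairs. No source used here says what the number stands for.

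Members Cd28, Ctla4 and Icos lie side by side on mouse chromosome 1 (GRCm38), in that order: Cd28 (60746388 to 60773359), Ctla4 (60909025 to 60915832) and Icos (60960773 to 61000322), with no other protein-coding gene between neighbours. Cd274 (29362107 to 29388095) and Pdcd1lg2 (29410919 to 29472927) are neighbours on chromosome 19, 22.8 kb apart. Pdcd1 lies elsewhere on chromosome 1 (94038305 to 94052553), Lag3 (124904359 to 124912434) and Klrg1 (122270596 to 122282833) on chromosome 6, Tigit (43626137 to 43665125) on chromosome 16 and Havcr2 (46454931 to 46481255) on chromosome 11. An antisense gene shares 511 exonic bases with Cd274. No source used here gives the strand setting of the counting, so reads from the antisense gene cannot be told apart from Cd274 reads. The RefSeq promoter table held 6 of the 10 members, each as a window of 250 bases before to 50 bases after the start of an annotated transcript. The Ctla4 and Pdcd1lg2 windows lie at the gene starts given above, and the Cd274 window lies inside the gene span. The 3 below belong to Ctla4, which had the smallest p between the gates, and to the neighbours Cd274 and Pdcd1lg2, whose levels moved together across samples. Capitals mark matches on either strand to the NFAT core, spelled GGAAA, or to the TATA box, spelled TATAAA.
Ctla4 promoter, chr1:60908775-60909074, plus strand: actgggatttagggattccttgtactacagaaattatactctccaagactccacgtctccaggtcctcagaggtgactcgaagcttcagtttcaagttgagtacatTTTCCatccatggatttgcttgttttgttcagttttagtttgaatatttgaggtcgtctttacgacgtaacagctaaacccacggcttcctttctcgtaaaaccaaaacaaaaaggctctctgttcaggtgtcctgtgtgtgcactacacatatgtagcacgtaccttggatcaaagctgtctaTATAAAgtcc
Cd274 promoter, chr19:29367188-29367487, plus strand: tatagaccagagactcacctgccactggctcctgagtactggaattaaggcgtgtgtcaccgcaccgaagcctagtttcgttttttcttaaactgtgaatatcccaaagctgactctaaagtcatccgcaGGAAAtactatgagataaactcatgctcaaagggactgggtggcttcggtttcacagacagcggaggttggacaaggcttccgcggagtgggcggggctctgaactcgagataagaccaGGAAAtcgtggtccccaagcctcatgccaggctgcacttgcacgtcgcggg
Pdcd1lg2 promoter, chr19:29410669-29410968, plus strand: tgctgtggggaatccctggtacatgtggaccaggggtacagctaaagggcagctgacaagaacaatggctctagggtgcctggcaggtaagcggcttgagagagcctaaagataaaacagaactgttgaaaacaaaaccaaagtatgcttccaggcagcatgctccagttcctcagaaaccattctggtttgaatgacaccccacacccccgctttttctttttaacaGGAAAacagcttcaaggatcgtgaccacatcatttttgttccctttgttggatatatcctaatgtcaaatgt
The NFAT core occurred 1 time in the Ctla4, 2 times in the Cd274 and 1 time in the Pdcd1lg2 window, and was found in 61.3% of the 32851 promoter windows of this length in the table. A TATA box match lay in the Ctla4 window, starting at base 41 after that start, and 13.6% of windows held one. None of the 3 windows held the AP-1 letters TGANTCA (7.81% of windows) or the STAT letters TTCNNNGAA (8.30%), searched on both strands.

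Per kilobase of the longest annotated transcript, levels spanned a wide range. The order, by mean RPKM over the 6 samples, was Icos (722), Klrg1 (391), Ctla4 (51.9), Tigit (17), Cd274 (15.4), Havcr2 (12.9), Pdcd1 (12.5), Pdcd1lg2 (5.35), Cd28 (3.14) and Lag3 (0.269). Icos at 683 to 798 RPKM and Klrg1 at 342 to 460.1 RPKM were each separate from the next gene in every sample, and stood at or above 99.6% and 99.1% of tested genes with a known length. Ctla4, at 41.1 to 70.2 RPKM, was also separate from both neighbours in the order. Tigit (13.2 to 24.1), Cd274 (6.86 to 20.5), Havcr2 (10 to 15.5) and Pdcd1 (10.8 to 14.0) overlapped one another. Pdcd1lg2 (2.74 to 7.05 RPKM) overlapped Cd28 (1.05 to 6.63 RPKM) and the lowest Cd274 samples, and Lag3, at 0.0621 to 0.555 RPKM, lay below all others. ICOS transcripts per length were thus far more abundant than those of its relative CD28 in every sample, and PD-L1 transcripts exceeded PD-L2 transcripts in every sample.

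**Figure D1:**
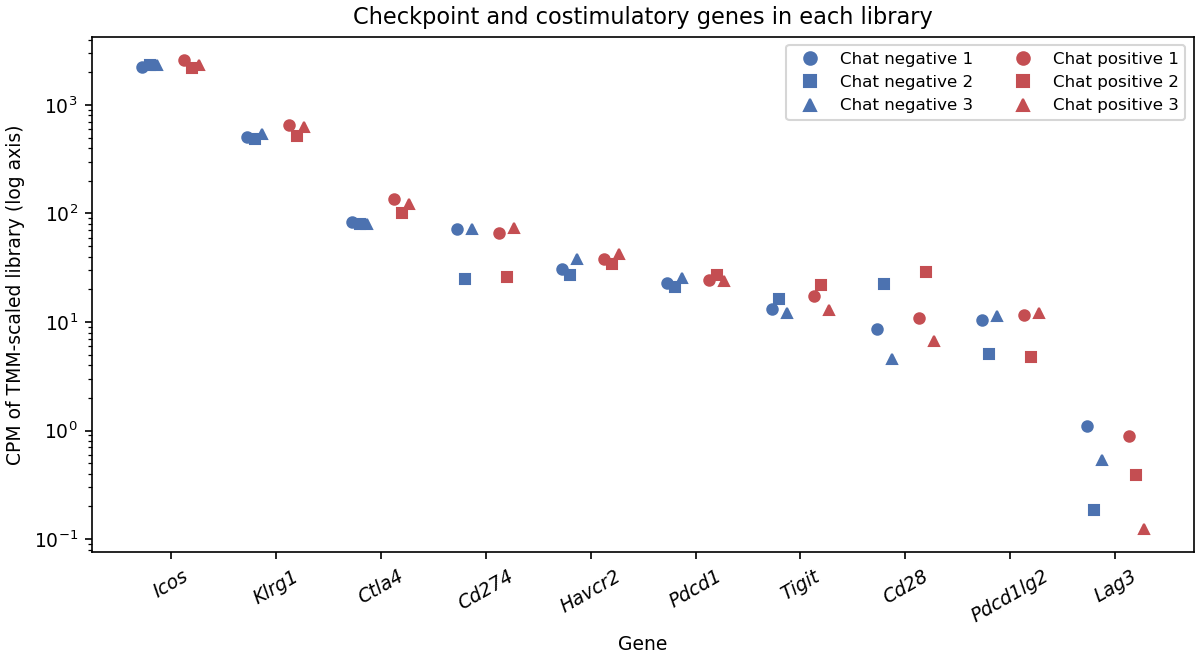
CPM of the TMM-scaled library on a log axis for each of the 10 genes, with 1 point per sample, blue for Chat negative and red for Chat positive, and the marker shape giving the sample number. Ctla4 is the gene whose Chat positive points all lie above its Chat negative points, and the squares (number 2) lie apart for Cd274, Pdcd1lg2 and Cd28 in both gates.

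The gates were compared to find which of these transcripts separate ILC2s sorted as Chat positive from those sorted as Chat negative. No member passed in the edgeR quasi-likelihood test (0 of 10 at an adjusted p under 0.05), where 0.00771% of tested genes passed, namely Chat alone. DESeq2, which called 0.0308% of tested genes, and limma-voom, which called 0.00771%, also called 0 of 10. At an unadjusted p under 0.05 there was 1 of 10, Ctla4, beside 2.43% of tested genes. Of the 10 members, 8 had a log2 difference above 0, beside 50.9% of tested genes, and the median of the 10 was 0.18 beside 0.00 over all tested genes. That count was not stable. Over the alternatives it ran from 6 (without Chat positive 1) to 10 (without Chat negative 1), and it was 7 in limma-voom. Bulk samples cannot tell more transcript per cell apart from more cells that carry it.

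Ctla4, the inhibitory receptor that competes with CD28, had the smallest p. It stood at 83.7, 79.9 and 79.5 CPM across Chat negative samples 1, 2 and 3 and at 136, 101 and 122 CPM across Chat positive samples 1, 2 and 3. Every Chat positive sample was above every Chat negative sample, and the Chat negative samples were close to one another while the Chat positive ones spread. It was the only member without overlap (1 of 10), where 4.53% of tested genes were higher in Chat positive samples without overlap. The means were 81.0 ± 2.34 and 119.6 ± 17.7 CPM (SD, n = 3 each), a 1.48-fold difference and a log2 difference of 0.56 (SE 0.13) (edgeR adjusted p = 1.00). With the sample number as a block the log2 difference was 0.55 (SE 0.08) and Ctla4 passed (edgeR adjusted p = 0.0419), 1 of 10 members where 0.339% of tested genes passed. Chat itself, the gene used for sorting, did not pass in that blocked fit (log2 difference 3.24, SE 0.25, edgeR adjusted p = 0.0961). The Ctla4 call was lost without robust dispersions (adjusted p = 0.104), without both samples numbered 1 (0.484) or numbered 2 (0.0949), and in limma-voom with the block (0.0856). It was kept without both samples numbered 3 (1.06e-05), where 709 of 13055 tested genes passed. DESeq2 with the block also kept it (5.12e-06), where 3.67% of tested genes passed. Without both samples numbered 2 and without the block, the difference was 0.66 (SE 0.10, edgeR adjusted p = 0.323). Over all alternatives its log2 difference ran from 0.46 to 0.67 and its adjusted p from 5.12e-06 to 1.00. Of the 13 ILC2 marker genes, 6 had a log2 difference above 0 and 7 below, with a median of -0.04. Those named here were chosen after their values were seen. Gata3, Il7r, Thy1, Bcl11b and Il17rb were lower in the Chat positive sample for each number. The log2 differences of Il7r and Bcl11b with the block were -0.22 and -0.24 (edgeR adjusted p = 0.122 and 0.103). Il5, Il1rl1, Il13, Areg and Hpgds were higher for each number. With the block, the cytokine gene Il5 (edgeR adjusted p = 0.0472) and the IL-33 receptor gene Il1rl1 (0.0419) also passed. Il13 stood at 267, 317 and 311 CPM across Chat negative and 464, 377 and 427 CPM across Chat positive samples 1, 2 and 3, and Areg at 221, 271 and 238 and at 371, 309 and 326 CPM. Neither overlapped between the gates, at unadjusted edgeR p-values of 0.00409 and 0.00630 and adjusted p-values of 1.00 without the block. The part of these markers in the Ctla4 difference was not tested.

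Icos, the costimulatory receptor encoded next to Ctla4, was the most abundant member. It stood at 2241, 2354 and 2326 CPM across Chat negative and 2587, 2214 and 2316 CPM across Chat positive samples 1, 2 and 3. The gates overlapped, and the log2 difference was 0.04 (SE 0.11, edgeR adjusted p = 1.00). Its sign turned without Chat positive 1 (-0.03). Icos was the steadiest member in Chat negative samples relative to its mean, at 2307 ± 58.9 CPM, and reached 2372 ± 193 CPM across Chat positive samples (SD, n = 3 each).

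Cd28, the receptor that delivers the classical costimulatory signal to T cells, varied mainly with the sample number. It stood at 8.53, 22.4 and 4.56 CPM across Chat negative and 10.8, 28.8 and 6.71 CPM across Chat positive samples 1, 2 and 3. In both gates sample 2 was highest and sample 3 lowest, and the mean of the number 2 samples was 3.35 times that of the others. Within each number the Chat positive sample was higher, by 0.34, 0.36 and 0.56 on the log2 scale for numbers 1, 2 and 3. The log2 difference between gates was 0.38 (SE 0.71) without the block and 0.41 (SE 0.12) with it, at edgeR adjusted p-values of 1.00 and 0.155. Single samples decided the unblocked value: it was 1.24 without Chat negative 2, -0.44 without Chat positive 2 and -0.0052 without Chat negative 3.

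Pdcd1, which encodes PD-1, stood at 22.7, 20.9 and 25.4 CPM across Chat negative and 24.2, 27.1 and 24.1 CPM across Chat positive samples 1, 2 and 3. The gates overlapped and the spread was small, with a log2 difference of 0.13 (SE 0.14, edgeR adjusted p = 1.00). Its ligand gene Cd274 stood at 71.7, 24.9 and 72.6 CPM across Chat negative and 65.4, 25.8 and 74.2 CPM across Chat positive samples 1, 2 and 3. Both number 2 samples were low and the other 4 were alike, whatever the gate. The log2 difference of Cd274 was -0.03 (SE 0.50), and with the block -0.02 (SE 0.08), at edgeR adjusted p-values of 1.00 and 0.935. Pdcd1lg2, the second PD-1 ligand, followed the same profile, at 10.5, 5.12 and 11.4 CPM across Chat negative and 11.5, 4.74 and 12.2 CPM across Chat positive samples 1, 2 and 3. Its log2 difference was 0.07 (SE 0.44), and with the block 0.04 (SE 0.14, edgeR adjusted p = 0.909). Samples other than number 2 averaged 2.80 times the number 2 level for Cd274 and 2.32 times for Pdcd1lg2. Signs of these small differences turned when single samples were left out: Cd274 reached 0.31 without Chat positive 2, 0.18 without Chat negative 1 and 0.19 without Chat negative 3, and Pdcd1lg2 reached -0.21 without Chat negative 2, -0.09 without Chat positive 1 and -0.17 without Chat positive 3.

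**Figure D2:**
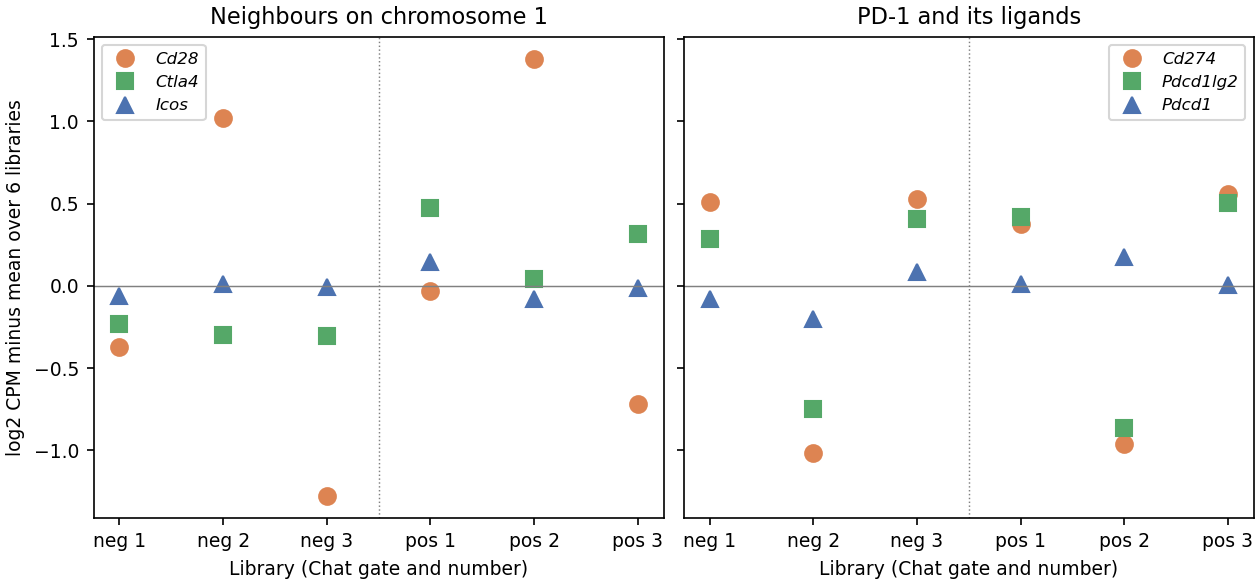
Log2 CPM of each gene minus its mean over the 6 samples, with 1 point per gene and sample, for the chromosome 1 neighbours (left) and for PD-1 and its ligands (right). Cd28 is highest in both number 2 samples, Cd274 and Pdcd1lg2 are lowest there, and Ctla4 is higher in all 3 Chat positive samples.

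Cd28, Cd274 and Pdcd1lg2 were the members for which both number 2 samples lay at least 2-fold beyond all 4 others. Cd28 was above them, as were 0.609% of tested genes, and Cd274 and Pdcd1lg2 were below them, as were 2.05%. This comparison was added after the values were seen and was not tested. With both number 2 samples left out and no block, the gates differed by 0.41 (SE 0.36) for Cd28, -0.05 (SE 0.11) for Cd274 and 0.11 (SE 0.16) for Pdcd1lg2 on the log2 scale, at edgeR adjusted p-values of 0.764, 0.912 and 0.865. For numbers 1 and 3, 0 of 10 members met the same rule. The summed level of 11 listed T cell marker genes was 95.0 and 86.7 CPM in the number 2 samples and 162 to 184 CPM in the others. That sum came mostly from Trbc2, Trbc1 and Cd3g, while Trac was highest in the number 2 samples, at 0.449, 1.29 and 0.672 CPM across Chat negative and 0.514, 2.00 and 1.17 CPM across Chat positive samples 1, 2 and 3. Their part in the Cd28 levels was not tested. Cd8b1 had 0 counts in all samples and Cd4 at most 0.971 CPM. The most abundant T cell markers were the receptor constant gene Trbc2, at 93.5 ± 29.1 CPM across Chat negative and 79.3 ± 20.1 CPM across Chat positive samples, and Cd3g, at 28.7 ± 10.4 and 28.8 ± 12.7 CPM (SD, n = 3 each). The whole list spanned 95.0 to 184 CPM across Chat negative and 86.7 to 162 CPM across Chat positive samples, and its part in the Ctla4 difference was not tested.

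Klrg1, an inhibitory receptor for cadherins and a marker of mature ILC2s, stood at 506, 483 and 538 CPM across Chat negative and 651, 518 and 622 CPM across Chat positive samples 1, 2 and 3. The gates overlapped only through Chat positive 2, which lay below Chat negative 3. The log2 difference was 0.23 (SE 0.12, edgeR adjusted p = 1.00), and 0.22 (SE 0.06, adjusted p = 0.132) with the block. DESeq2 with the block called it (adjusted p = 0.0438, where 3.67% of tested genes passed), within a range of 0.0438 to 1.00 over all alternatives.

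Tigit, an inhibitory receptor that competes for PVR, stood at 13.1, 16.4 and 12.1 CPM across Chat negative and 17.4, 22.1 and 12.8 CPM across Chat positive samples 1, 2 and 3. Number 2 was highest in both gates, as for Cd28, and the gates overlapped. Its log2 difference was 0.33 (SE 0.23, edgeR adjusted p = 1.00). Havcr2, which encodes TIM-3, stood at 30.5, 27.3 and 38.3 CPM across Chat negative and 38.2, 34.3 and 42.1 CPM across Chat positive samples 1, 2 and 3. Number 2 was lowest and number 3 highest in both gates, with a log2 difference of 0.25 (SE 0.16, edgeR adjusted p = 1.00). Lag3 was sparse, with 47, 8 and 23 counts in Chat negative and 33, 20 and 5 counts in Chat positive samples 1, 2 and 3. The gates overlapped (log2 difference -0.39, SE 0.86, edgeR adjusted p = 1.00), and its sign turned without Chat negative 1 (0.38) or Chat positive 3 (0.05).

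Within a sample number, Ctla4, Cd28, Tigit, Havcr2 and Klrg1 were each higher in the Chat positive sample for 3 of 3 numbers. These are 5 of 10 members, beside 22.3% of tested genes with that direction for all 3 numbers. Ctla4 differed by 0.70, 0.33 and 0.62 on the log2 scale for numbers 1, 2 and 3, and Klrg1 by 0.36, 0.10 and 0.21. Havcr2 differed by 0.33, 0.33 and 0.14, and Tigit by 0.41, 0.43 and 0.08. The differences of Ctla4 and Klrg1 were smallest for number 2, whose samples also had the smallest Chat difference, 2.67 beside 3.51 and 3.55. Among the same 5 members, Tigit was largest for number 2 (0.43), and Havcr2 (0.33) and Cd28 (0.36) were not smallest there. A link to the Chat difference was not tested. With the block, Havcr2 had a log2 difference of 0.26 (SE 0.09, edgeR adjusted p = 0.197) and Tigit 0.31 (SE 0.12, adjusted p = 0.255).

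**Figure D3:**
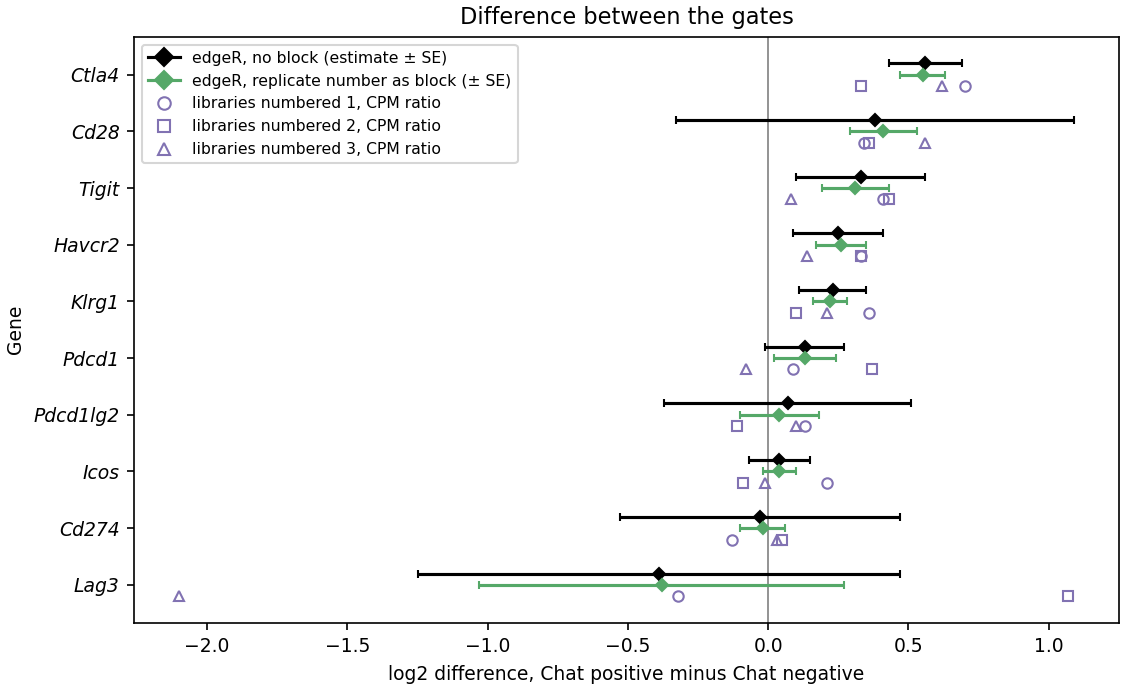
Log2 difference, Chat positive minus Chat negative, for each gene: edgeR estimates with SE bars without the block (black) and with the sample number as a block (green), and the 3 CPM ratios within a number (open symbols). The Ctla4 symbols all lie right of 0 at 0.33 to 0.70, while the bars of Cd28, Cd274 and Pdcd1lg2 shrink with the block.

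Genes with the profile most like Ctla4 were sought among 8375 tested genes with a mean of at least 10 CPM, by Pearson's r of log2 CPM over the 6 samples. The 5 most alike were Smox, a polyamine oxidase (r = 0.996), Gimap4, a lymphocyte GTPase (0.987), the small GTPase Mras (0.986), Pcca, a subunit of propionyl-CoA carboxylase (0.977), and the autophagy receptor Optn (0.977). The samples share their gate and number, and the largest of many values of r over 6 samples is high by choice, so these are a description. Smox stood at 352 ± 6.47 CPM across Chat negative and 428 ± 35.9 CPM across Chat positive samples, and Gimap4 at 165 ± 5.58 and 215 ± 28.4 CPM (SD, n = 3 each). Like Ctla4, both were close together in Chat negative samples and spread in Chat positive ones.

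The wider pathway was described with 7 lists holding 87 genes, of which 72 were tested. No list gene passed in edgeR without the block, in DESeq2 or in limma-voom (0 of 72 each). In edgeR without the block 1 of 72, Batf, had an unadjusted p under 0.05, beside 2.43% of all tested genes. The median log2 difference over the 72 genes was -0.07, beside 0.00 over all tested genes. Of the 72, 26 were above 0 and 46 below, where 50.9% of all tested genes were above 0.

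Relatives of CD28 and B7 ligands had 4 of 8 tested genes above 0, with a median of -0.12. Vsir, which encodes the inhibitory receptor VISTA, stood at 175, 56.5 and 133 CPM across Chat negative and 108, 45.0 and 99.9 CPM across Chat positive samples 1, 2 and 3. Chat positive was lower for each number, number 2 was lowest in both gates, and the gates overlapped. Its log2 difference was -0.53 (SE 0.46, edgeR adjusted p = 1.00). With the block Vsir passed (-0.48, edgeR adjusted p = 0.0478), as 1 of the 72 pathway genes, where 0.339% of all tested genes passed. No pathway gene passed with the block without robust dispersions, without both samples numbered 1 or numbered 2, or in limma-voom. Vsir was also called with the block and without both samples numbered 3, and in DESeq2 with the block, as Ctla4 was. Icosl, the ICOS ligand, stood at 13.4 ± 3.16 CPM across Chat negative and 11.1 ± 1.16 CPM across Chat positive samples (SD, n = 3 each). The B7 relative Cd276 (0.789 ± 0.379 and 0.176 ± 0.224 CPM) and Tnfrsf14, a ligand of BTLA (0.622 ± 0.117 and 0.362 ± 0.154 CPM), were sparse.

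On the nectin axis around TIGIT, 1 of 5 tested genes was above 0, with a median of -0.20. Cd96, another receptor for PVR, stood at 9.07 ± 1.57 CPM across Chat negative and 6.71 ± 0.854 CPM across Chat positive samples, without overlap. Cd226, the activating receptor that shares PVR with TIGIT, stood at 22.4 ± 5.30 and 19.5 ± 2.05 CPM, and Nectin3 at 1.70 ± 0.818 and 0.942 ± 0.557 CPM. The direction of these 3 was opposite to that of Tigit. None passed in edgeR without the block or with it on all samples, and Nectin3 was called with the block and without both samples numbered 3. Nectin3 was lower in the Chat positive sample for numbers 1 and 2 (-2.32 and -0.77 on the log2 scale) but higher for number 3 (0.25).

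Among ligands and relatives of TIM-3, LAG-3 and KLRG1, 3 of 7 tested genes were above 0, with a median of -0.03. The TIM-3 ligand gene Lgals9 was abundant and level, at 328 ± 10 CPM across Chat negative and 321 ± 8.05 CPM across Chat positive samples. Bag6, which binds the TIM-3 tail, stood at 87.8 ± 12.0 and 81.5 ± 8.41 CPM. Of the KLRG1 ligands, Cdh1 (E-cadherin) stood at 2.21 ± 1.79 and 0.727 ± 0.420 CPM, with Chat negative 1 highest at 4.14, and Cdh2 (N-cadherin) at 1.60 ± 0.621 and 2.15 ± 1.39 CPM.

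The list named other inhibitory receptors had 5 of 9 tested genes above 0 and a median of 0.23. Both values include Klrb1f, whose inhibitory role was not examined here. The most abundant was Lilrb4a, at 1254, 583 and 1645 CPM across Chat negative and 1471, 655 and 2011 CPM across Chat positive samples 1, 2 and 3, with number 2 lowest in both gates. Cd244a, a SLAM family receptor, stood at 39.5 ± 14.5 and 24.7 ± 4.72 CPM. Its log2 difference was -0.68 (SE 0.29) without the block and did not pass. With the block it was -0.63 (SE 0.12, edgeR adjusted p = 0.0758). Cd244a was called with the block and without both samples numbered 3, and Cd244a and Lilrb4a in DESeq2 with the block. The myeloid-type receptor Cd300a stood at 3.30 ± 0.999 and 5.09 ± 1.22 CPM. Klrb1f was sparse, at 0.475 ± 0.223 and 0.866 ± 0.0459 CPM without overlap. Its log2 difference of 0.86 (SE 0.46) was the largest among the tested genes of this list.

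Signalling partners of the receptor tails lay mostly on the other side of 0 from the receptors, with 2 of 18 tested genes above 0 and a median of -0.14. Pik3cd, the catalytic phosphoinositide 3-kinase subunit of lymphocytes, stood at 931 ± 25.0 CPM across Chat negative and 807 ± 61.9 CPM across Chat positive samples, without overlap, and its regulatory partner Pik3r1 at 205 ± 15.2 and 178 ± 21.4 CPM. The kinase Akt1 stood at 195 ± 89.1 and 121 ± 51.5 CPM. None of the 18 passed in edgeR without the block or with it on all samples. Akt1, Pik3ca and Ppp2ca were called with the block and without both samples numbered 3, and Pik3cd and Prkcq in DESeq2 with the block. For the first 3 genes, number 3 ran the other way from numbers 1 and 2. Akt1 differed by -1.48, -1.33 and 0.86 on the log2 scale for numbers 1, 2 and 3. Pik3ca differed by -1.05, -0.83 and 0.72, and Ppp2ca by -0.27, -0.49 and 0.30. With the block on all samples their edgeR adjusted p-values were 0.722, 0.774 and 0.758.

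Genes for trafficking, shedding and mRNA decay of these receptors had 5 of 15 tested genes above 0 and a median of -0.07. Zc3h12a, an RNase that degrades the mRNAs of Icos and Ctla4, stood at 17.2 ± 0.549 and 21.9 ± 3.05 CPM without overlap, a log2 difference of 0.35 (SE 0.15), and was called with the block and without both samples numbered 3. The Roquin genes Rc3h1 and Rc3h2, which repress Icos mRNA, stood at 38.3 ± 5.69 and 29.9 ± 9.69 CPM and at 28.3 ± 4.45 and 23.1 ± 3.46 CPM. Cmtm6, which stabilises PD-L1 protein, was the most abundant, at 439.9 ± 60.8 and 419 ± 51.0 CPM.

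Transcription factors known to act on checkpoint genes had 6 of 10 tested genes above 0 and a median of 0.11. Batf, an AP-1 family factor, stood at 278, 296 and 314 CPM across Chat negative and 371, 321 and 384 CPM across Chat positive samples 1, 2 and 3. Every Chat positive sample was above every Chat negative one, with a log2 difference of 0.28 (SE 0.11, edgeR adjusted p = 1.00, and 0.108 with the block). It was called with the block without both samples numbered 3 and in DESeq2 with the block. Nfatc1 stood at 126 ± 9.39 and 113 ± 3.62 CPM, lower without overlap, and Nr4a2 at 0.357 ± 0.197 and 0.703 ± 0.442 CPM.

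**Figure D4:**
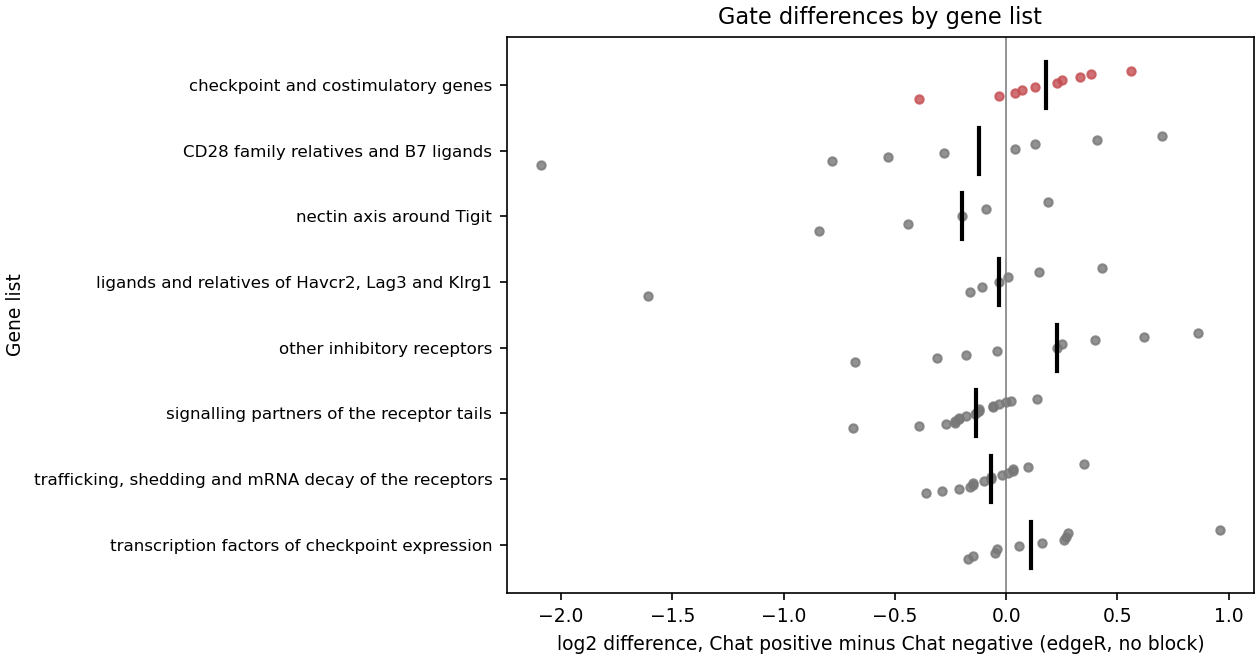
Log2 difference between the gates (edgeR, no block) for each tested gene of the 10 checkpoint and costimulatory genes (red) and of the 7 pathway lists (grey), with a black bar at the median of each list. The medians run from -0.20 for the nectin axis to 0.23 for other inhibitory receptors, and the signalling partners lie mostly left of 0.

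Summed levels of the marker lists of other cell types overlapped between the gates for every list. For the 6 ILC1 and NK cell markers the sum was 0.138 to 1.67 CPM across Chat negative and 0.408 to 0.676 CPM across Chat positive samples, with Klra8 at 0 counts and Klrd1 and Tbx21 the most abundant. The 5 ILC3 markers summed to 3.67 to 6.16 and 4.56 to 7.4 CPM, led by Il22 and Il17f. The 6 B cell markers summed to 66.2 to 74.3 and 68.7 to 85.9 CPM, nearly all from Cd79b, with Cr2 next, and the 10 myeloid and dendritic cell markers to 138 to 164 and 140.3 to 171 CPM, mostly from Xcr1 and Cd68, with Siglech at 0 counts. Mast cell and basophil markers summed to 278 to 356 and 301 to 318 CPM, from Kit and Mcpt8, while Cpa3, Mcpt4 and Ms4a2 had 0 counts. Epithelial and stromal markers summed to 84.2 to 162 and 91.9 to 154 CPM, led by Pecam1 and Epcam, with Cdh5 at 0 counts. Of the ILC2 markers, Il5 and Il2ra were the most abundant, at 7012 ± 1379 and 11186 ± 3208 CPM and at 4398 ± 1197 and 4656 ± 953 CPM (SD, n = 3 each).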

How the data were processed

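The authors deposited raw counts of reads per gene in 1 column per library; the values are whole and their column sums differ. The kit was a SMARTer kit for ultra-low input, per the labels' protocols. CASAVA 1.8.2, STAR 2.3.0 and mm10 appear in the submitters' processing notes. Neither the counting program nor its strand setting is given in the sources used here. Symbols and coordinates came from RefSeq (GRCm38.p6), matching 25275 of 27179 IDs, and transcript lengths from GENCODE vM21.

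Genes were kept by filterByExpr and tested with edgeR 4.0.16 (quasi-likelihood F-test, robust dispersions, TMM factors, R 4.3.3), two-sided, at a threshold of 0.05 after Benjamini-Hochberg adjustment across all tested genes. DESeq2 1.42.0 and limma-voom 3.58.1 were alternatives. The models without the block were run on simulated data that held no effect of the sample number. The blocked models were not tested in this way. Same-numbered samples deviated together across genes (r = 0.29, 0.67 and 0.43 for numbers 1, 2 and 3), and were treated as pairs in the blocked fits. No label gives this pairing. The r of Chat negative 1 with Chat positive 3 was as high (0.30).

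The members and lists were chosen with earlier results of these data known. Named genes are the members, Chat, the 3 genes of smallest p and the most abundant gene of each pathway list, the 2 most abundant of each marker list, and the 5 most like the member of smallest p. Genes named outside this rule were chosen after their values were seen. Fits without both samples of a number and without the block, and most alternatives for the pathway lists, were added after seeing the data.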

Additional observations from a re-analysis of the deposited data

How the results depend on the processing

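Across 24 alternatives, the log2 changes of Ctla4, Klrg1, Tigit, Havcr2 and Pdcd1 kept their sign, but leaving out 1 sample gave 0.12 (without Chat positive 2) to 0.50 (without Chat positive 3) for Tigit, 0.15 (without Chat negative 2) to 0.40 (without Chat negative 3) for Havcr2 and 0.06 (without Chat negative 2) to 0.20 (without Chat negative 3) for Pdcd1, which was 0.07 without Chat positive 2 and 0.00086 without both samples numbered 2. Ctla4 passed with the replicate block (0.55), with the block and without both samples numbered 3 (0.52) and in DESeq2 with the block (0.54), and Klrg1 in the last only (0.21), so that members called numbered 1, 1 and 2 in these fits. Pathway genes called in the same fits numbered 1, 8 and 6. All genes called numbered 44 with the replicate block, 0, 3 and 709 with the block and without both samples numbered 1, 2 or 3, 4 in DESeq2 and 476 in DESeq2 with the block. Without the block, fits without both samples numbered 1, 2 or 3 called 0, 2 and 0 genes, with 53, 1154 and 303 genes at an unadjusted p under 0.05. Leaving out 1 sample gave 0 to 1 calls over all genes, 0 being reached without Chat negative 1, Chat negative 3, Chat positive 1 or Chat positive 3, and 0 among members and pathway genes.

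Signs turned for members with small differences. Without both samples numbered 1, Cd274 was 0.04 with the block and 0.03 without it, and Icos was -0.05 in both. Pdcd1lg2 was -0.01 with the block and without number 1, and -0.01 in limma-voom. Lag3 was 0.27 with the block and without number 3. Leaving out 1 sample gave -0.39 to 0.31 for Cd274, -0.21 to 0.40 for Pdcd1lg2, -1.22 to 0.38 for Lag3, -0.03 to 0.09 for Icos and -0.44 to 1.24 for Cd28. The cause was not tested. Lag3 was filtered out at 5 CPM, and DESeq2 with the block gave it no adjusted p. Lag3 had the fewest counts of the members, at most 47 in a sample.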

Other observations

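The following pathway genes had number 2 samples that lay apart in both gates. They were chosen after their values were seen and were not tested. The transcription factor Irf4 stood at 38.7, 78.9 and 32.1 CPM across Chat negative and 45.6, 77.2 and 33.6 CPM across Chat positive samples 1, 2 and 3. Tox, an exhaustion-associated factor of T cells, stood at 32.0, 67.8 and 30.5 CPM and at 32.2, 56.3 and 27.0 CPM in the same order. Both were highest in the number 2 samples, as Cd28 was. Klrb1b, an inhibitory lectin-like receptor, was low there, at 14.9, 4.13 and 16.9 CPM across Chat negative and 14.5, 4.93 and 12.2 CPM across Chat positive samples, and was 1 of 72 tested pathway genes with both number 2 samples at least 2-fold below all others, beside 2.05% of all tested genes. Of the 72, 0 were at least 2-fold above, beside 0.609%.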
